A study of Mus musculus with 20 samples.

Results

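The 8 genes described here encode transcription factors of the sclerotome, the part of the somite that forms vertebrae and the outer ring of the intervertebral disc: Pax1, Pax9, Nkx3-2, Meox1, Meox2, Foxc1, Foxc2 and Zic1. They were taken by symbol from a deposited table of 51789 genes, and each symbol matched 1 row. RNA had been sequenced from the nucleus pulposus (NP), the soft centre of the disc, and from the annulus fibrosus (AF), the ring of fibrous layers that encloses it. All mice were BL6 and 24 months old. From 18 months of age they had received weekly intraperitoneal injections for 6 months, either of DMSO alone, the vehicle, or of MDL-800 in the same amount of DMSO. MDL-800 is a small molecule used to activate SIRT6, a deacylase that acts on chromatin. Each tissue gave 5 libraries from either treatment, 20 in 4 groups. No dose and no sex are given in the sources used here, nor is it said whether 1 library is 1 mouse, so p-values measure the spread between these samples, which may be partly technical. The sample titles speak of cells, but the protocol describes tissue dissected under a microscope and placed directly in a preserving solution.

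During development, Sonic hedgehog from the notochord and floor plate induces Pax1 and Pax9 in the ventral somite, and these paired-box factors, partly redundant with each other, switch on Nkx3-2 and drive cells towards cartilage. Meox1 and Meox2 are homeobox factors of the somite that keep its compartments and the sclerotome in order, Foxc1 and Foxc2 are forkhead factors of paraxial mesoderm that also act in blood and lymphatic vessels, and Zic1 is a zinc finger factor of the dorsal somite and neural tube. The NP has another origin, the notochord, whereas the AF descends from the sclerotome.

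Values below are scaled FPKM: fragments corrected for the length of the transcript and the size of the library, divided by 1 factor per library (0.933 to 1.06). Within a group, values follow the numbers in the sample titles: 1, 2, 3, 5 and 6 (NP vehicle), 15, 18, 19, 20 and 22 (NP MDL-800), 8, 9, 10, 12 and 13 (AF vehicle), 25, 27, 28, 29 and 30 (AF MDL-800). Differences are in log2(scaled FPKM + 1), tested with limma over 16383 genes with Benjamini-Hochberg adjustment and called at an adjusted p under 0.05. The step between low FPKM values put the depth at about 12.8 to 22.2 megafragments per library. Set against markers of each tissue, 8 of 8 tested notochord and NP markers were higher in NP vehicle than in AF vehicle, and 6 of 6 AF markers were lower. Beside these counts, 3577 of the 16383 genes tested were called higher in NP vehicle and 5550 lower. Summed AF markers, led by the small proteoglycan genes Dcn and Lum, ranged from 12.2 to 121 in NP libraries and from 1568 to 6370 in AF libraries. AF vehicle library 9 stood apart, with summed NP markers, led by Car3 and Cd24a, of 15086 against 2493 to 7510 in the other AF libraries, and with the lowest AF marker sum, 1568. Car3 made up much of the NP marker sum. In AF vehicle the median of Car3 was 4369 and its highest value 10912, where the median sum was 5846.

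In vehicle-treated mice all 8 factors were lower in NP than in AF, by log2 differences from -0.72 (Nkx3-2) to -4.18 (Pax1). Beside this count, 33.9% of all genes tested were called lower in NP, and 55.7% were called in either direction. Under MDL-800 all 8 were lower in NP again, against 37.2% of all genes, and 62.8% were called in either direction. The median difference was -2.35 over the 8 factors and -0.08 over all genes in vehicle. These counts describe the genes rather than test them, because the filter (1 FPKM in at least 5 of 20 libraries) was reached through AF: 6 of the 8, the exceptions being Pax1 and Foxc1, were at 1 FPKM in no NP library. With no filter each of the 8 was still called lower in both comparisons (adjusted p 7.85e-05 to 0.0279 in vehicle), beside 20.7% of all genes in vehicle and 23.2% under MDL-800. Since these are bulk samples, fewer cells of a type and less RNA per cell cannot be told apart.

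**Figure D1:**
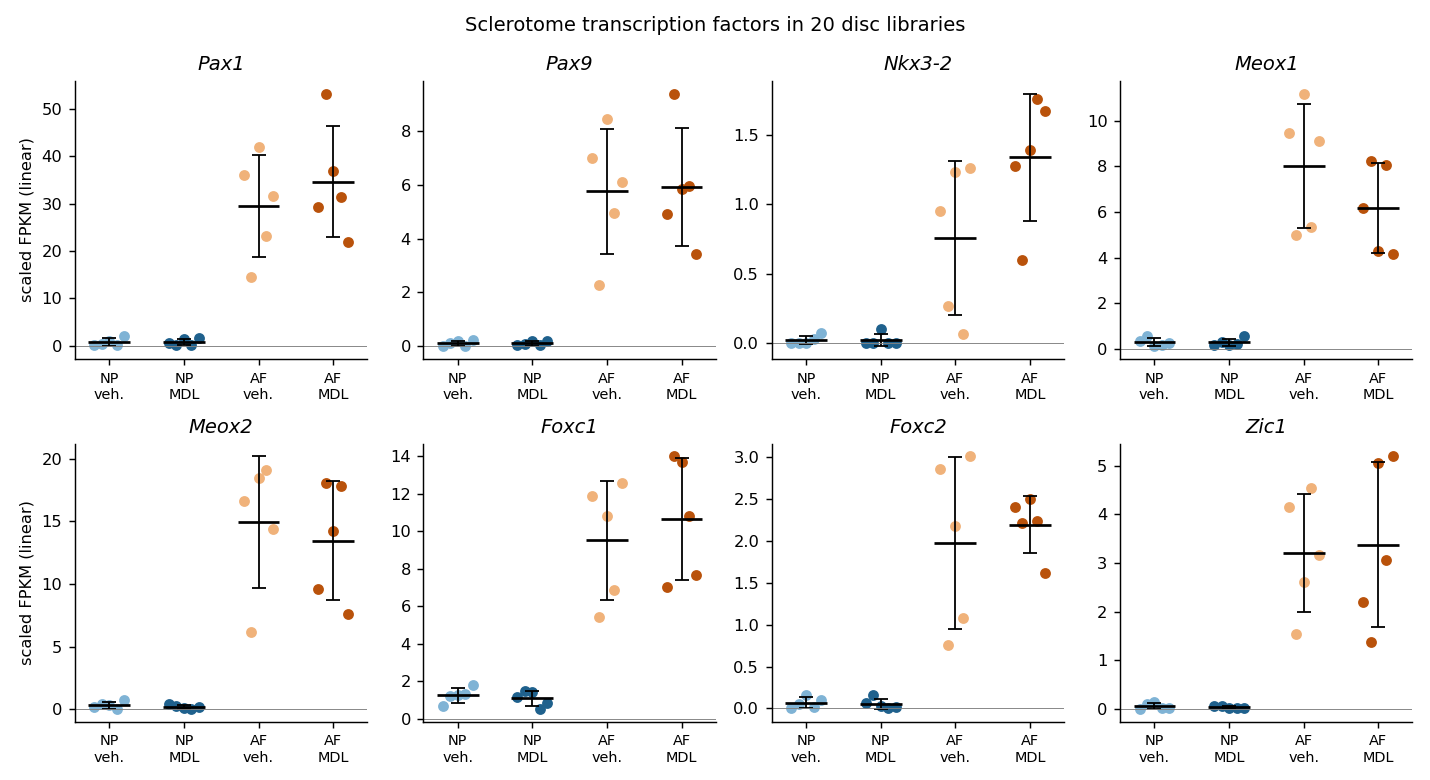
Scaled FPKM (linear axes that differ between panels) of each of the 8 factors in the 20 libraries; points are libraries, horizontal bars are means and error bars are SD (n = 5). All panels show low NP points and high AF points, Nkx3-2 with AF vehicle library 12 at 0.0666, within the NP range.

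Pax1 had the highest level of the 8 in AF. The AF libraries read 36, 14.5, 42, 23.2 and 31.6 for vehicle and 29.3, 53.2, 36.9, 31.5 and 22 for MDL-800. In NP, Pax1 read 0.107, 0.299, 1.12, 0.0789 and 2.04 for vehicle and, for MDL-800, 0.577, 0.189, 1.38, 0.127 and 1.74. The tissues did not overlap in either treatment, the lowest AF vehicle library being 7.12 times the highest NP vehicle library. The AF mean was 40.3 times the NP mean in vehicle (29.5 ± 10.8 against 0.73 ± 0.848, SD, n = 5) and 43.1 times under MDL-800. The log2 difference was -4.18 (SE 0.35; limma adjusted p = 9.1e-06) in vehicle and -4.34 (SE 0.29; adjusted p = 1.67e-06) under MDL-800.

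Within NP, Pax1 ran from 0.0789 to 2.04. Summed AF markers in the same order of libraries were 23.8, 91.5, 54.3, 19.3 and 109 in NP vehicle and 83.8, 76.1, 70.8, 12.2 and 121 in NP MDL-800. They were lowest in libraries 20 and 5, where Pax1 read 0.127 and 0.0789, and highest in libraries 22 and 6, where it read 1.74 and 2.04. The order did not hold between these ends. Library 2, at 91.5, had a Pax1 value of only 0.299, while libraries 3 and 19, at 54.3 and 70.8, had 1.12 and 1.38. The part of AF tissue in these NP values was not tested.

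Pax9, the close relative of Pax1, was expressed at a lower level, with a similar ratio of tissue means but a smaller log2 difference. AF values were 7, 2.27, 8.42, 4.96 and 6.09 for vehicle and 4.91, 9.37, 5.83, 5.96 and 3.42 for MDL-800. NP values were 0.0322, 0.134, 0.192, 0 and 0.227 for vehicle and, for MDL-800, 0.0398, 0.0842, 0.202, 0.0423 and 0.185. No NP library came near an AF library, and the AF mean was 49.1 times the NP mean in vehicle and 53.3 times under MDL-800, ratios that rest on an estimated 0 to 17 fragments per NP library (median 7). NP minus AF came to -2.51 (SE 0.25; limma adjusted p = 2.17e-05) and -2.58 (SE 0.19; adjusted p = 2.43e-06).

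The pair kept a narrow ratio in AF: within a library, Pax1 was 4.68 to 6.42 times Pax9 (median 5.48, n = 10). In NP, Pax9 was near 0 and Pax1 lay between 0.0789 and 2.04. There the ratio ran from 2.23 to 14.5 over the 9 libraries with Pax9 above 0. In GRCm38, Pax1 (ENSMUSG00000037034) lies on chromosome 2 at 147361925-147393295, plus strand, and Pax9 (ENSMUSG00000001497) on chromosome 12 at 56691767-56712822, plus strand. Pax1 shares 183 exonic bases with the antisense gene AI646519 (median 6.22 FPKM in AF), and Pax9 shares 189 with Slc25a21 on the other strand. The library kit marks strand, but whether the counting used it is not given in the sources used here.

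RefSeq (GRCm38.p6) promoters were matched for 6 of the 8 genes. The 250 bases before the RefSeq start are printed for Pax1 and Pax9, whose AF levels moved together, and for Meox2, the second most abundant factor in AF. They overlap no exon of their gene, although those of Pax1 and Pax9 fall inside the GENCODE gene span, in an intron. Capitals mark the GC box GGGCGG, the CCAAT box CCAAT and the TATA box TATAAA, read on both strands.
Pax1, chr2:147364744-147364993, plus strand: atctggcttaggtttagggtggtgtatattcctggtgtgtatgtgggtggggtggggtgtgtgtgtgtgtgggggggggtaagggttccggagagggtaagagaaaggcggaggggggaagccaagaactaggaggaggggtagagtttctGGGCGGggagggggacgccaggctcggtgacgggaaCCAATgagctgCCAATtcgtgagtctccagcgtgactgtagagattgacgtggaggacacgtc
Pax9, chr12:56695221-56695470, plus strand: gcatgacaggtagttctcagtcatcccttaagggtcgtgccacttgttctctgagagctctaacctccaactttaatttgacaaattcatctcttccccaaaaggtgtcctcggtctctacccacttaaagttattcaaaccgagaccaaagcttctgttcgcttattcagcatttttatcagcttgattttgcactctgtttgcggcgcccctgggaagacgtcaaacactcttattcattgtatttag
Meox2, chr12:37108290-37108539, plus strand: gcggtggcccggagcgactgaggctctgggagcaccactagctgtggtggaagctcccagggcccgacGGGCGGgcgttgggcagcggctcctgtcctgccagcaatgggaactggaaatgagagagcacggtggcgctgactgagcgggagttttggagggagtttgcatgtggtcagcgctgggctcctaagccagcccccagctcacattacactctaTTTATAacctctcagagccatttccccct
The Pax1 stretch holds 1 GC box and 2 CCAAT boxes, the Pax9 stretch none of the 3 motifs, and the Meox2 stretch a GC box and a TATA box (as TTTATA, its reverse complement). A GC box was found in 5 of the 6 matched promoters and in 32.7% of all 32851, a CCAAT box in 3 of 6 and 33.8%, and a TATA box in 1 of 6 and 12.4%. The GLI site GACCACCCA was in none of the 6 and in 0.225% of all. CpG pairs numbered 10 (Pax1), 7 (Pax9) and 12 (Meox2), against a median of 6 over all promoters. The matched stretches not printed held more, 29 (Foxc1), 27 (Zic1) and 21 (Nkx3-2). Of their 250 bases, 13 (Foxc1), 42 (Zic1) and 250 (Nkx3-2) lie in an exon of the gene.

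Nkx3-2, a homeobox gene induced by Pax1 and Pax9 in the embryo and a repressor that permits cartilage formation, was the least abundant factor. Its AF values were 0.952, 0.27, 1.23, 0.0666 and 1.26 for vehicle and 1.28, 0.597, 1.39, 1.76 and 1.67 for MDL-800. In NP vehicle it was listed at 0 in libraries 1, 2 and 3, at 0.0296 in library 5 and at 0.0691 in library 6. In NP MDL-800 it was listed at 0 except in library 19, at 0.101. By the depth estimate these NP values rest on 0 to 2 fragments, and the AF values on 2 to 58, so a low NP level and no expression cannot be told apart. The tissues overlapped in vehicle through AF library 12 and did not overlap under MDL-800.

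The log2 difference of Nkx3-2 was -0.72 (SE 0.21; limma adjusted p = 0.0139) in vehicle and -1.17 (SE 0.15; adjusted p = 6.18e-05) under MDL-800. With quantile normalization the vehicle difference was -0.35 and was not called (adjusted p = 0.120), and the MDL-800 difference was -0.77. Library 12, its lowest AF library, had the lowest summed bone markers of the AF libraries, 249, and skeletal muscle markers of 8679. AF MDL-800 library 29, with the highest Nkx3-2, had the highest sums of both, 2070 and 9546. The part of tissue make-up in this value was not tested. Nkx3-2 (ENSMUSG00000049691) lies on chromosome 5 at 41761483-41764501, minus strand, and has 1 annotated transcript of 1718 nucleotides.

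Meox1 and Meox2, the mesenchyme homeobox pair, were both far lower in NP. Meox2 read 16.6, 6.16, 18.5, 19.1 and 14.4 in AF of vehicle mice and 9.61, 18.1, 14.2, 17.8 and 7.61 with MDL-800. In NP, Meox2 read 0.129, 0.392, 0.314, 0.0197 and 0.721 for vehicle and, for MDL-800, 0.388, 0.284, 0.0706, 0 and 0.165. The tissues did not overlap, and the AF mean was 47.5 times the NP mean in vehicle and 74.1 times under MDL-800. The log2 difference was -3.54 (SE 0.28, limma adjusted p = 6.93e-06) in vehicle and -3.55 (SE 0.23, adjusted p = 1.26e-06) under MDL-800. On this scale, with 1 added to the values, Meox2 was second to Pax1 among the 8 in both. With 0.1 added instead, Meox2 came to -5.72 and Pax1 to -5.66 under MDL-800, and to -5.36 and -5.73 in vehicle.

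For Meox1, the AF libraries read 9.47, 4.97, 11.2, 5.36 and 9.11 for vehicle and 6.16, 8.24, 4.29, 8.06 and 4.15 for MDL-800. The NP libraries read 0.322, 0.557, 0.111, 0.148 and 0.227 for vehicle and, for MDL-800, 0.169, 0.284, 0.151, 0.201 and 0.535. Like Pax1 and Foxc1, and unlike the other 5 factors, it was above 0 in every NP library, at a mean of 3.4% of the AF mean in vehicle and 4.34% under MDL-800. On the log2 scale, Meox1 differed by -2.78 (SE 0.21; limma adjusted p = 6.45e-06) and -2.46 (SE 0.19; adjusted p = 2.62e-06). Meox2 was 1.24 to 3.56 times Meox1 within AF libraries (median 1.79, n = 10), and was above it in all 10. Meox1 (ENSMUSG00000001493) lies on chromosome 11 at 101877510-101894374, minus strand, and Meox2 (ENSMUSG00000036144) on chromosome 12 at 37108540-37179534, plus strand.

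Foxc1 was the factor with the highest level in NP and the smallest ratio between tissues. NP libraries read 0.675, 1.21, 1.24, 1.29 and 1.82 for vehicle and 1.15, 1.5, 1.43, 0.508 and 0.844 for MDL-800. AF libraries read 11.9, 5.44, 10.8, 6.87 and 12.6 for vehicle and, for MDL-800, 7, 14, 13.7, 10.8 and 7.69. The tissues did not overlap, with an AF mean 7.63 times the NP mean in vehicle and 9.76 times under MDL-800. The NP mean was 13.1% of the AF mean in vehicle and 10.2% under MDL-800, where the other 7 factors lay between 1.22% and 4.34%. The log2 difference was -2.19 (SE 0.23; limma adjusted p = 2.85e-05) and -2.45 (SE 0.22; adjusted p = 5.45e-06).

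Foxc2, its relative, was much lower in both tissues. Foxc2 read 2.86, 0.753, 2.18, 1.08 and 3.01 in AF of vehicle mice and 2.41, 2.21, 2.5, 2.24 and 1.62 with MDL-800. Its NP values were 0, 0.0516, 0.162, 0.0197 and 0.0987 for vehicle and, for MDL-800, 0.0597, 0.158, 0.0303, 0 and 0.0206. The NP values rest on an estimated 0 to 9 fragments, and the tissues did not overlap. The log2 difference was -1.41 (SE 0.23; limma adjusted p = 0.000411) in vehicle and -1.60 (SE 0.11; adjusted p = 1.75e-06) under MDL-800, and -0.90 in vehicle with quantile normalization, still called. Foxc1 was 2.91 to 7.23 times Foxc2 within AF libraries (median 4.88, n = 10).

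Both forkhead genes also act in vessels, whose markers were lower in NP as well. Summed endothelial markers, led by Pecam1 and Vwf, ranged from 5.29 to 11.6 in NP and from 57.1 to 130 in AF, the NP mean being 9.22% of the AF mean in vehicle and 8.62% under MDL-800. Summed lymphatic markers (Lyve1, Flt4 and Prox1) ranged from 0.306 to 1.33 in NP and from 14.4 to 50.4 in AF. The part of vessels in the Foxc1 and Foxc2 values was not tested. Foxc1 (ENSMUSG00000050295) is a single exon on chromosome 13 at 31806633-31812476, plus strand. Foxc2 (ENSMUSG00000046714) is a single exon on chromosome 8 at 121116171-121118895, plus strand, inside the span of Gm20388 on the same strand with no exonic base shared. Gm20388 had a median of 35.86 FPKM in AF, and its part in the Foxc2 values was not tested.

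Zic1, a zinc finger factor of the Zic family, read 4.15, 1.54, 2.6, 4.55 and 3.16 in AF of vehicle mice and 2.2, 1.38, 5.06, 3.06 and 5.19 with MDL-800. In NP it read 0, 0.103, 0.142, 0.0197 and 0.0296 for vehicle and, for MDL-800, 0.0597, 0.0631, 0.0303, 0.0212 and 0.0309. The tissues did not overlap, and the AF mean was 54.4 times the NP mean in vehicle and 82.3 times under MDL-800. Zic1 differed by -1.94 on the log2 scale (SE 0.20; limma adjusted p = 2.52e-05) and -1.98 (SE 0.24; adjusted p = 5.05e-05). Zic1 (ENSMUSG00000032368) lies on chromosome 9 at 91358058-91365810, minus strand, and shares 60 exonic bases with its neighbour Zic4 on the other strand.

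In vehicle 7 of the 8 factors did not overlap between the tissues, Nkx3-2 being the exception, beside 25.9% of all genes that lay wholly lower in NP. Under MDL-800 none of the 8 overlapped, beside 30.5% of all genes. The constant of 1 added before taking logs pulls in the differences of low genes: with 0.1 in its place the vehicle differences ran from -5.73 (Pax1) to -2.48 (Nkx3-2), and that of Zic1 was -4.37.

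Many markers of other tissues were also lower in NP vehicle than in AF vehicle: all 9 of skeletal muscle, all 7 of bone, all 7 of red blood cells, all 6 of neutrophils, all 4 of macrophages, of fat and of nerve, all 8 of endothelium, both tested for lymphatic vessels, 4 of 5 for meninges and 2 of 4 for smooth muscle, with 1 higher in NP in each of these last lists. The share of all genes tested that were called lower in this comparison was 33.9%. Summed skeletal muscle markers, led by Mylpf and Acta1, ranged from 11.2 to 1233 in NP and from 880 to 9546 in AF. Bone markers, led by Bglap and Bglap2, ranged from 1.57 to 169 and from 249 to 2070. The part of these tissues in the levels of the 8 factors was not tested.

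**Figure D2:**
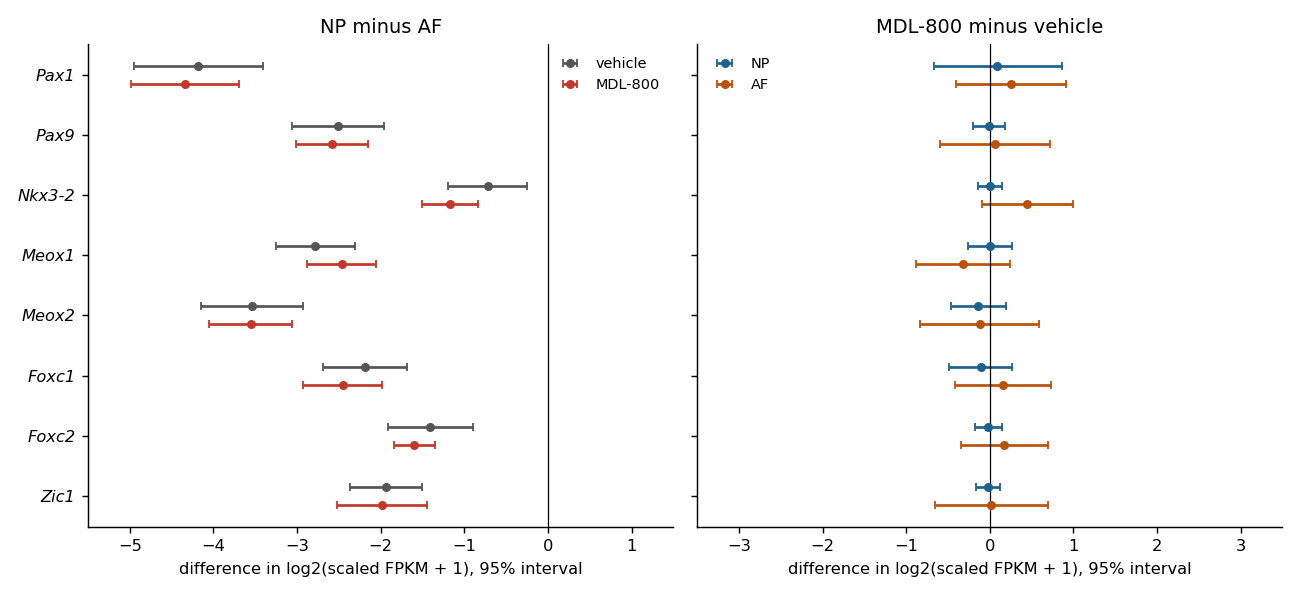
Differences in log2(scaled FPKM + 1) with 95% intervals from limma, NP minus AF on the left (vehicle and MDL-800) and MDL-800 minus vehicle on the right (NP and AF). All 16 intervals on the left lie below 0, and all 16 on the right include 0.

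Per length of transcript, the order of the means in AF was the same in both treatments: Pax1, Meox2, Foxc1, Meox1, Pax9, Zic1, Foxc2, Nkx3-2. In AF vehicle, each factor was above the next in all 5 libraries, except that Foxc1 was above Meox1 in 4. The ranges of all neighbours overlapped over the 5 libraries. In AF MDL-800, only Pax1 and Meox2 had ranges that did not overlap; Meox1 was above Pax9, and Zic1 above Foxc2, in 3 of 5 libraries. In NP vehicle the order was led by Foxc1 (1.25 ± 0.405, SD, n = 5), followed by Pax1 (0.73 ± 0.848).

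Among AF libraries the factors did not vary alike. Library 9, the one with high NP markers, held the lowest value of the 10 AF libraries for Pax1, Pax9, Meox2, Foxc1 and Foxc2. Library 27 held the highest Pax1, Pax9 and Foxc1 and the lowest Zic1, at 0.42 times its AF mean. Library 27 also had the highest summed AF markers, 6370. Zic1 was instead highest in libraries 30 and 28, at 1.58 and 1.54 times its AF mean, and Pax1 in library 30 was at 0.69 times its own. The part of tissue make-up in these differences between AF libraries was not tested.

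**Figure D3:**
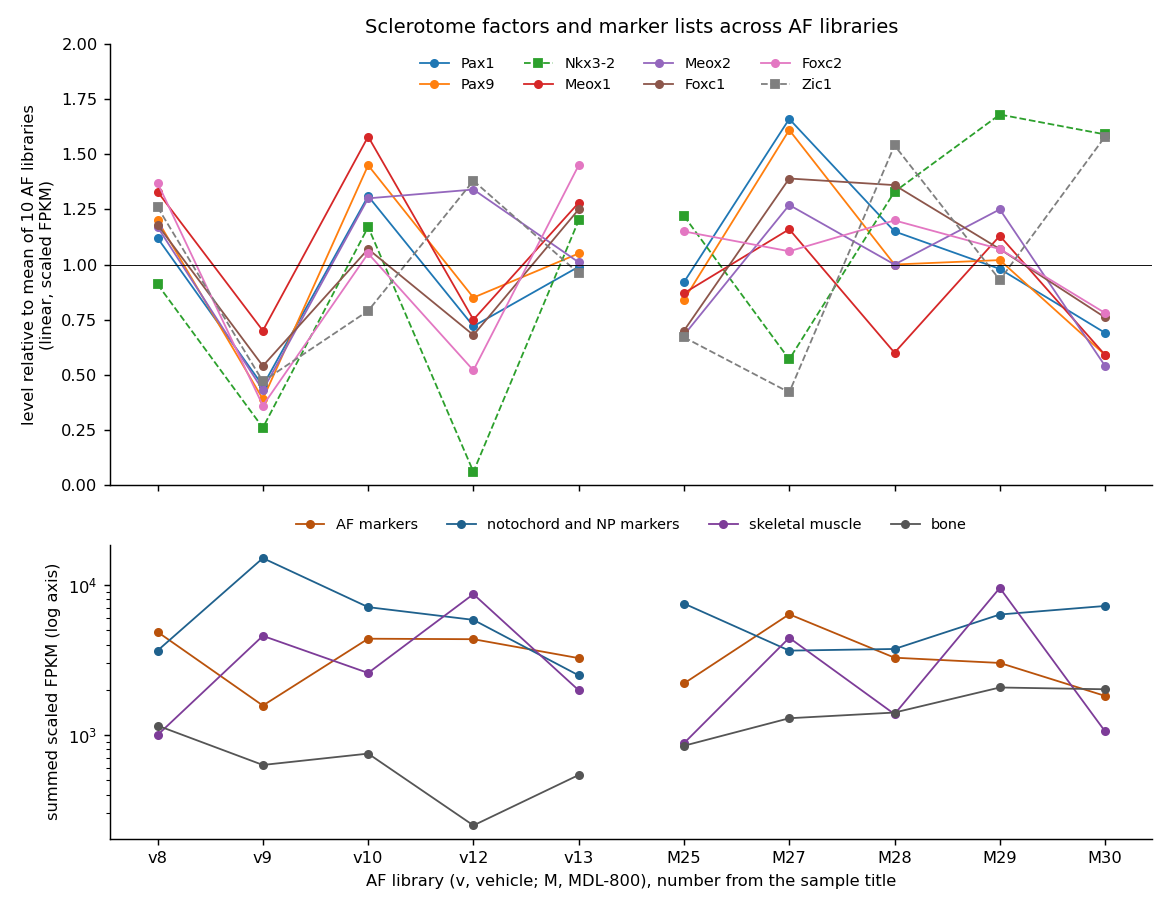
Top, each factor's scaled FPKM divided by its mean over the 10 AF libraries (linear axis); bottom, summed scaled FPKM of 4 marker lists (log axis). Lines only link the points of 1 gene or list within a treatment. Library 9 is low for most factors, and Zic1 and Nkx3-2 (dashed) are low in library 27, where Pax1, Pax9 and Foxc1 are highest, and high in library 30, where the other 6 are below their means.

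Over the 10 AF libraries, Pax1 and Pax9 had a Pearson r of 0.97 (Spearman rho 0.92) on the log2 scale. These libraries differed in make-up, with summed NP markers from 2493 to 15086. The part of make-up in the correlations was not tested. Foxc1 followed Pax1 with r = 0.87 (rho 0.88), Meox2 followed Pax9 with r = 0.87 (rho 0.70), and Foxc1 followed Foxc2 with r = 0.80 (rho 0.66). Zic1 had r from -0.33 (Meox1) to 0.29 (Nkx3-2) with the other 7. Nkx3-2 had r from -0.01 (Meox2) to 0.69 (Foxc2, rho 0.39) with the other 7, and 0.34 (rho 0.02) with Pax1. Over the 10 NP libraries Pax1 and Pax9 had r = 0.89 (rho 0.89), with Pax9 near 0 and Pax1 between 0.0789 and 2.04. All these are descriptions over few libraries.

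Genes with a pattern like that of each factor were ranked by Pearson r over all 20 libraries, where the tissue difference dominates. Pax1 was followed most closely by Pcsk6 (r = 0.994), a proprotein convertase, Wif1 (0.993), a secreted Wnt inhibitor, and Bcat1 (0.993). Pax9 was followed by Hoxa11 (0.997), the endothelin receptor gene Ednra (0.995) and the vasopressin receptor gene Avpr1a (0.993). Meox2 was followed by the Wnt receptor gene Fzd1 (0.996), Pdgfra (0.995), a receptor of mesenchymal cells, and Dpysl3 (0.994). Meox1 was followed by C1qtnf7 (0.990), Kcnt2 (0.989) and Sfrp2 (0.985), a secreted Wnt modulator. Foxc1 was followed by Slc29a1 (0.990), Hoxc6 (0.990) and Pde3a (0.989), and Foxc2 by Scube1 (0.991), S1pr3 (0.982) and Csmd1 (0.982). The closest genes were less close for Zic1, with Wipf1 (0.973), Hgf (0.972) and Xdh (0.970), and for Nkx3-2, with Msi1 (0.945), Prss50 (0.942) and Mdfi (0.939).

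Over the 10 AF libraries alone, the closest genes were mostly different ones. Hoxa11 stayed among the closest 3 for Pax9 (0.977) and was also there for Pax1 (0.962), behind Rftn2 (0.976) and Avpr1a (0.964). Herpud1 (0.969) and Dusp1 (0.967) followed for Pax9. Hoxc6 (0.983), Hoxa9 (0.974) and the matrix gene Chad (0.961) were closest to Foxc1, and Nfatc1 (0.977), Kif7 (0.953) and Scube1 (0.950) to Foxc2. Dab2 (0.984), Gab2 (0.976) and Bicc1 (0.974) were closest to Meox2, and Rasl12 (0.932), Col8a2 (0.929) and Pdlim4 (0.926) to Meox1. Zic1 had Synj1 (0.904), Mettl3 (0.896) and Xdh (0.881), and Nkx3-2 had Zfp653 (0.920), Arid1b (0.909) and Ier2 (0.909). These are the highest of 16373 correlations over 10 libraries, and are given as a description only.

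MDL-800 against vehicle in NP called none of the 8 factors (limma), and none had an unadjusted p under 0.05, beside 0.250% of all genes called (41 genes) and 14.1% at an unadjusted p under 0.05. The count of 41 ran from 2 without NP vehicle library 3 to 189 without NP vehicle library 6. The differences lay between -0.14 (Meox2, SE 0.15; 95% interval -0.47 to 0.19; adjusted p = 0.728) and 0.09 (Pax1, SE 0.35; -0.67 to 0.86; adjusted p = 0.941). For Pax9, Nkx3-2, Meox1, Foxc2 and Zic1 the difference was within 0.02 of 0, and the widest of their intervals, that of Meox1, ran from -0.26 to 0.26. Because these 5 sit near 0 FPKM in NP, small intervals on this scale do not bound their fold change.

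In AF, where the factors are expressed, MDL-800 also called none of the 8 (limma), and none had an unadjusted p under 0.05, beside 0% of all genes called and 1.65% at an unadjusted p under 0.05. Pax1 was at 34.6 ± 11.7 with MDL-800 and 29.5 ± 10.8 with vehicle (SD, n = 5), a log2 difference of 0.25 (SE 0.30; 95% interval -0.41 to 0.91; limma adjusted p = 1). Pax9 differed by 0.06 (-0.60 to 0.72), Meox2 by -0.12 (-0.83 to 0.59), Foxc1 by 0.16 (-0.42 to 0.73), Foxc2 by 0.17 (-0.35 to 0.69) and Zic1 by 0.02 (-0.65 to 0.69). These intervals are wide enough to hold changes of more than 0.5 in either direction for Pax9, Meox2 and Zic1.

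Nkx3-2 and Meox1 had the largest AF differences, in opposite directions. Nkx3-2 was at 1.34 ± 0.46 with MDL-800 and 0.756 ± 0.555 with vehicle (SD, n = 5), a log2 difference of 0.45 (SE 0.24; 95% interval -0.09 to 1.00; limma adjusted p = 1). Without AF vehicle library 12 the difference was 0.29, and with a constant of 0.1 it was 1.07, not called. Summed bone markers in the same libraries ranged from 846 to 2070 with MDL-800 and from 249 to 1153 with vehicle; their part in the Nkx3-2 values was not tested. Meox1 was at 6.18 ± 1.97 with MDL-800 and 8.02 ± 2.73 with vehicle, a log2 difference of -0.32 (SE 0.25; 95% interval -0.88 to 0.24; limma adjusted p = 1). The groups overlapped for both genes.

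Whether MDL-800 acted differently in the 2 tissues was tested with the interaction term, the NP difference minus the AF difference. None of the 8 was called (limma), and none had an unadjusted p under 0.05, beside 0% of all genes called and 3.73% at an unadjusted p under 0.05. The interaction was -0.45 for Nkx3-2 (SE 0.26; 95% interval -1.01 to 0.10) and 0.31 for Meox1 (SE 0.29; -0.30 to 0.92), and between -0.27 (Foxc1) and -0.02 (Meox2) for the other 6. All adjusted p were 1.

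Of 17 partners of the factors in somite and sclerotome, 12 passed the filter, and in vehicle 6 were lower and 3 higher in NP, or 6 and 5 with quantile normalization. Of all genes tested, 33.9% were called lower in this comparison and 55.7% in either direction. Twist1, a basic helix-loop-helix factor of mesenchyme, had a mean of 0.101 in NP and 5.86 in AF (log2 difference -2.59, SE 0.21; limma adjusted p = 7.76e-06). Prrx2, a paired-related homeobox gene, had 0.31 and 13.4 (-3.45, SE 0.30; adjusted p = 1.02e-05), and Tbx18, a T-box gene of the anterior somite, 0.116 and 2.62 (-1.66, SE 0.18; adjusted p = 3.09e-05). The homeobox genes Pbx3 and Meis2 were among those higher in NP. Tcf15, Uncx, Tbx6, Mesp2 and Ripply2, factors of early somites, were under the filter. In this and the next lists, genes that are low in NP could pass the filter only through AF, and genes beyond the first 3 of a list are named after their values were seen.

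Of 10 hedgehog genes, the pathway that induces Pax1 and Pax9 in the embryo, 6 were lower in NP and 1 higher (7 of 10 called, beside 55.7% of all genes). The pathway target and activator Gli1 had a mean of 0.734 in NP and 6.61 in AF (-2.09, SE 0.20; limma adjusted p = 1.66e-05), the inhibitor Hhip 0.0844 and 4.79 (-2.32, SE 0.26; adjusted p = 3.97e-05), and Gli2 0.18 and 5 (-2.23, SE 0.30; adjusted p = 0.000137). The ligand gene Shh was the 1 higher in NP, at 4.71 and 1.29 (1.19, SE 0.42; adjusted p = 0.0323). Under MDL-800 the Shh difference was 0.46 (SE 0.45; limma adjusted p = 0.395) and was not called. The ligand gene Ihh was lower in NP (-1.41, SE 0.48; adjusted p = 0.0274), and Ptch1, a receptor gene that is also a usual target of the pathway, differed by -0.53 (SE 0.25; adjusted p = 0.0995) and was not called. Under MDL-800 Ptch1 was called lower in NP, at -0.96 (limma adjusted p = 0.0277), but not with quantile normalization (adjusted p = 0.0611). In the MDL-800 comparison 7 of the 10 were lower and none higher, beside 37.2% of all genes called lower. With quantile normalization in vehicle 4 of the 10 were lower, and Ihh was no longer called (adjusted p = 0.11).

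All 6 genes of the BMP list were called, 4 lower and 2 higher in NP, beside 55.7% of all genes called. In the embryo, BMP signals promote cartilage in sclerotome cells that express Nkx3-2. Bmp2 had a mean of 0.402 in NP and 6.11 in AF (-2.31, SE 0.17; limma adjusted p = 5.89e-06), Bmp4 0.074 and 4.37 (-2.27, SE 0.20; adjusted p = 1.21e-05), and the antagonist Nog 0.31 and 2.33 (-1.33, SE 0.16; adjusted p = 6.06e-05). Bmp7 and the antagonist Chrd were the 2 higher in NP.

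Of 8 chondrogenic genes tested, 3 were higher and 2 lower in NP, and this share called, 5 of 8, is near the 55.7% of all genes. With quantile normalization Sox5 was also called higher (adjusted p = 0.0396), and with upper quartile scaling Hapln1 (adjusted p = 0.0484). Sox9, the main cartilage factor, had a mean of 138 in NP and 53.7 in AF (1.36, SE 0.21; limma adjusted p = 0.000328), and Acan, which encodes the proteoglycan aggrecan, 2240 and 615 (1.92, SE 0.29; adjusted p = 0.000242). Runx2, a factor of bone and maturing cartilage that Nkx3-2 can repress, had 3.68 and 18.4 (-2.0, SE 0.20; adjusted p = 2.22e-05). Of the 8 tendon and fibre genes, 7 were lower in NP and none higher, beside 33.9% of all genes called lower, with Tnmd at 1.11 and 48.2 (-4.67, SE 0.36; adjusted p = 6.45e-06), Kera at 0.111 and 9.46 (-3.17, SE 0.27; adjusted p = 9.49e-06) and Thbs4 at 1.43 and 83 (-5.12, SE 0.44; adjusted p = 1e-05). With quantile normalization Scx was no longer called (adjusted p = 0.362), and Fmod was called higher in NP (adjusted p = 0.0499).

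Among 16 relatives in the same gene families, 7 passed the filter, of which 5 were lower and 2 higher in NP, beside 33.9% of all genes called lower and 55.7% in either direction. With quantile normalization Foxd2 was no longer called (-0.26 in place of -0.82; adjusted p = 0.222). The forkhead genes Foxf1 (0.196 and 5.7; log2 difference -2.44, SE 0.24; limma adjusted p = 2.12e-05) and Foxf2 (0.281 and 5.39; -2.29, SE 0.24; adjusted p = 3.16e-05) and the Zic1 neighbour Zic4 (0.0383 and 1.21; -1.08, SE 0.13; adjusted p = 6.28e-05) were lower. Foxd1 was among those higher in NP, with a mean of 12.7 in NP and 5.24 in AF (1.14, SE 0.18; adjusted p = 0.000368). Median differences were -0.81 for partners, -1.03 for hedgehog, -1.80 for BMP, 0.38 for chondrogenic, -3.61 for fibre genes and -1.08 for relatives, against -0.08 over all genes. No gene of these 6 lists was called with MDL-800 in NP, in AF or in the interaction (limma), though of 51 tested, 4 in NP, 2 in AF and 6 in the interaction had an unadjusted p under 0.05, beside 14.1%, 1.65% and 3.73% of all genes.

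**Figure D4:**
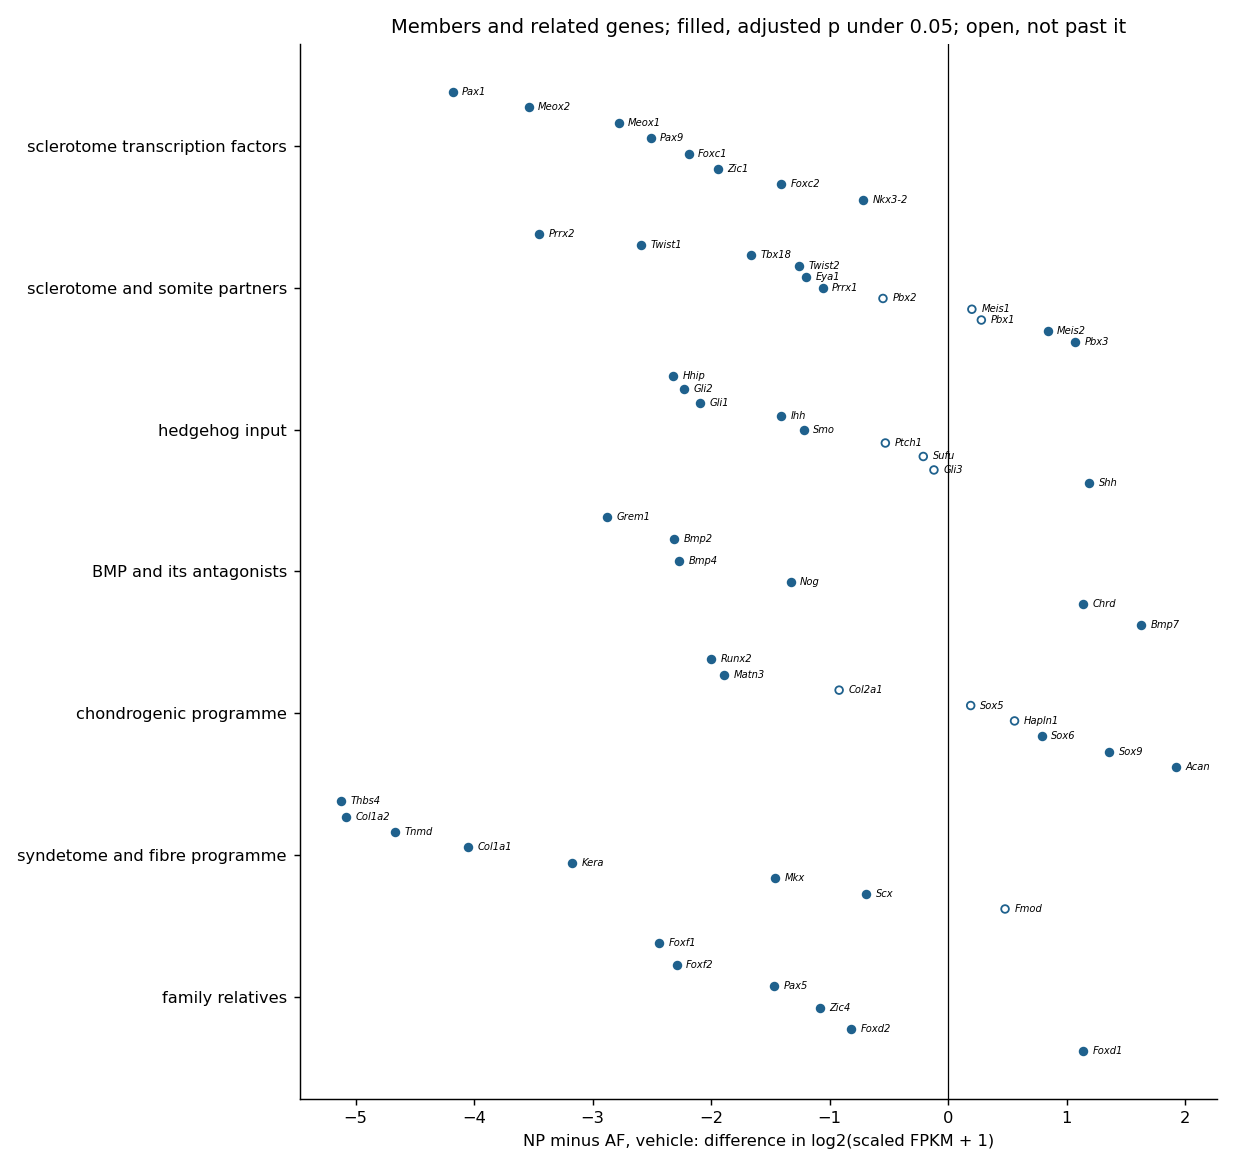
NP minus AF difference in log2(scaled FPKM + 1) in vehicle for the 8 factors and for tested genes of 6 related lists; filled points have an adjusted p under 0.05. The 8 factors all lie left of 0, from -4.18 to -0.72, while Shh, Bmp7, Acan and Sox9 lie to the right.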

How the data were processed

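RNA of NP and AF from the 20 libraries was prepared, per the labels' protocols, as stranded total RNA libraries after ribosomal RNA removal, from 50 ng of RNA with 14 PCR cycles. The authors deposited 1 table of FPKM values for 51789 genes, rounded to 2 decimals. STAR 2.7.11b and the mm10 build are named in the submitters' processing notes; the counting program and annotation are not given in the sources used here. FPKM carry no counts, so the fragments of each library (12.8 to 22.2 megafragments) were estimated from the smallest steps between values, over 6647 genes with 1 exon and 400 to 1200 nucleotides, where 66.0% to 75.3% of low values fell on a step; fragment numbers are approximate.

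Libraries were scaled by the median ratio over the 11308 genes that reached 1 FPKM in every library. The 16383 genes that reached 1 FPKM in 5 or more of the 20 libraries were tested on log2(scaled FPKM + 1) with limma 3.58.1 in R 4.3.3 (trended prior, two-sided, Benjamini-Hochberg over all genes tested), with only the 2 groups compared in the fit, and with all 4 groups for the interaction. The procedure was tested on simulated data. Positions are from GENCODE for GRCm38, and promoters from RefSeq GRCm38.p6. Tables and figures used Python 3.11.15, pandas 2.3.3 and matplotlib 3.10.9.

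The 8 factors, the gene lists and the tests were chosen with earlier results of these data known. Named besides the 8 factors are, by rule, the 3 genes of each related list with the smallest p among those called in NP against AF in vehicle, any called with MDL-800, the 2 most abundant genes of marker lists, and the 3 genes of highest Pearson r with each factor. Other pseudocounts, filters, scalings, weights and groups in the fit were tried, and each library was left out in turn. Column names carry a number shared by NP and AF libraries; a block by this number was added after the data were seen. Some genes of the related lists enter the counts but are not reported here by name.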

Additional observations from a re-analysis of the deposited data

Results flagged for a closer look

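Nkx3-2 in NP MDL-800 library 19 was at 0.101 scaled FPKM, and it was listed at 0 in the other 4 libraries of that group, so that 1 library made up the whole range. The value rests on an estimated 2 fragments. Of 32 combinations of factor and group looked at, this was the only one in which the highest or lowest library stood this far from the rest. With 4 libraries at 0, any value above 0 would meet this, so it says little about library 19.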

How the results depend on the processing

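All 8 factors kept a lower level in NP in both tissue comparisons under every alternative that tested them, and all were called except Nkx3-2 in vehicle with quantile normalization (-0.35, adjusted p = 0.120). With a filter of 5 FPKM, 5 of 8 were called in each tissue comparison, because Nkx3-2, Foxc2 and Zic1 leave the test. Leaving out 1 library at a time, 8 of 8 stayed called. None was called in a treatment comparison or the interaction under any alternative. Scaling moved the split of all genes: in vehicle 3577 were higher and 5550 lower in NP, but 6474 and 3923 with quantile normalization (median over all genes 0.20 in place of -0.08), 4976 and 4655 with upper quartile scaling; under MDL-800 the split was 4188 and 6102, then 6919 and 4290, and 5611 and 5043.

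Genes called with MDL-800 in NP numbered 41, against 7 with no filter, 81 with the filter of 5 FPKM, 18 without scaling, 70 with quantile normalization and 4 with all 4 groups in the fit, and 2 (without NP vehicle library 3) to 189 (without NP vehicle library 6) leaving out 1 library. In AF they numbered 0 to 1 (1 without AF MDL-800 library 25 or 29), and in the interaction 0 to 1 (1 without AF MDL-800 library 30). Differences near 0 changed sign; the cause was not tested. In NP with MDL-800, with a pseudocount of 0.1, Pax9 was at 0.02, Nkx3-2 at -0.03 and Meox1 at 0.01; with quantile normalization Pax9 was at 0.05, Nkx3-2 at -0.01, Meox1 at 0.02 and Zic1 at 0.01; with quality weights Nkx3-2 was at -0.01 and Meox1 at 0.01; without scaling Nkx3-2 was at -0.00. In AF, Zic1 was at -0.00 with quantile normalization and Pax9 at -0.03 with weights. The interaction was 0.07 for Pax1 (pseudocount of 0.1), 0.01 for Pax9 and 0.02 for Zic1 (quantile), and 0.03 for Pax9 and 0.02 for Meox2 (weights).

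Leaving out 1 library, the NP differences with MDL-800 ranged from -0.08 to 0.33 for Pax1, -0.05 to 0.03 for Pax9, -0.03 to 0.02 for Nkx3-2, -0.07 to 0.07 for Meox1, -0.21 to 0 for Foxc1, -0.05 to 0.01 for Foxc2 and -0.04 to 0 for Zic1. The AF differences ranged from -0.18 to 0.21 for Pax9, -0.39 to 0.05 for Meox2, 0 to 0.28 for Foxc1, 0 to 0.3 for Foxc2 and -0.15 to 0.21 for Zic1. The interaction ranged from -0.33 to 0.08 for Pax1, -0.21 to 0.17 for Pax9, -0.19 to 0.25 for Meox2 and -0.24 to 0.13 for Zic1.

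The number shared by NP and AF column names links 5 pairs in vehicle and 3 under MDL-800; the labels do not say what it marks. Deviations of libraries with the same number had r from -0.18 to 0.29, and the number was not treated as a pairing; whether such libraries come from 1 animal was not settled by this. With a replicate block, 8783 genes (vehicle) and 7858 (MDL-800, 3 pairs) were called, and all 8 factors in both. Depth limits the NP levels, and the ratios to them, of Nkx3-2 (an estimated 0 to 2 fragments), Foxc2 (0 to 9), Zic1 and Pax9 (0 to 17 each), Meox1 (4 to 21) and Meox2 (0 to 30).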
